A study of Mus musculus with 48 samples.

Results

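The Toll-like receptors and their partners are described here by the RNA levels of 10 genes in mouse brain. The members were every row of the expression table whose symbol was Tlr1, Tlr2, Tlr3, Tlr4, Tlr7, Tlr9, Tlr13, Cd14, Ly86 or Myd88, and all 10 were found among 16014 genes. The study fed the Csf1r inhibitor PLX5622, which removes microglia, in chow at 1200 ppm, or a vehicle chow, between 1.5 and 7 months of age. The groups were 5xFAD + PLX5622, Wild-type + PLX5622, 5xFAD and Wild-type, all C57BL/6, each read in cortex, hippocampus and thalamus, with 4 libraries in each of the 12 groups. 5xFAD mice carry human transgenes with familial Alzheimer's mutations under the Thy1 promoter, which drives them in neurons, and they form amyloid plaques. The tissue labelled thalamus also held striatum by the design text. The comparisons ask how far these innate immune genes change with plaque disease, and how much of their RNA is left once microglia have been removed.

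Toll-like receptors are membrane proteins that bind microbial or damage-associated molecules and switch on NF-κB and interferon regulatory factors. Tlr1, Tlr2 and Tlr4 work at the cell surface, while Tlr3, Tlr7, Tlr9 and Tlr13 sense nucleic acids in endosomes. Cd14 hands lipopolysaccharide to Tlr4 and lipopeptides to Tlr2, and Ly86, also called MD-1, is the partner of the Toll-like surface protein Cd180. Myd88 is the adaptor of all these receptors except Tlr3, which signals through Ticam1. In the brain most of them are best known from microglia, the resident macrophages, and Tlr3 and Myd88 are known from other brain cells too.

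The regulatory DNA of the members is shown first, and 4 promoters are printed, those of 3 receptors that PLX5622 lowered and that of the adaptor Myd88, for which no fall was called. RefSeq windows of the 250 bases before a transcription start (build GRCm38.p6) were found for 7 of the 10 members. They were searched on both strands for GAGGAA, the core bound by the myeloid factor PU.1, its longer form GAGGAAGT, which contains the core, a pair of GAAA with 2 bases of any kind between them for interferon regulatory factors, and GGGA followed by TTCC with 2 bases of any kind between them for NF-κB. The core was in 3 members' windows and the other 3 motifs in 1 each, where 23.3%, 2.44%, 2.98% and 1.21% of 32851 windows of all genes held them. The 3 printed receptors are those with the core. The windows of Ly86 and Tlr2, which PLX5622 also lowered, held none of the 4 motifs as searched. Other forms of these sites were not searched. The Tlr2 window held gggaattccc, which is close to the NF-κB motif and was not counted. Capitals mark the match below, each sequence is written 5′ to 3′ on the gene's strand, and bases that lie in an annotated exon were left out.
Tlr9, chr9:106222348-106222597, plus strand, core 112 bases before the start: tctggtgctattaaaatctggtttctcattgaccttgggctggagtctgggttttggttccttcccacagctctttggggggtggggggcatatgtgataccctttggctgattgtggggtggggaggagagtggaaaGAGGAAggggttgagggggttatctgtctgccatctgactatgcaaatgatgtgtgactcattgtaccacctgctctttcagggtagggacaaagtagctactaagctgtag
Tlr13, chrX:106143025-106143203, plus strand, core 83 bases before the start: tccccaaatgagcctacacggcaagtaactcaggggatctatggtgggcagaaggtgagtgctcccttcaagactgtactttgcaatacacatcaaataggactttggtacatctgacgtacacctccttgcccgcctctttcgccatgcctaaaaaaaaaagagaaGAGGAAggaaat
Tlr1, chr5:64933564-64933808, minus strand, core 23 bases before the start and inside the longer form: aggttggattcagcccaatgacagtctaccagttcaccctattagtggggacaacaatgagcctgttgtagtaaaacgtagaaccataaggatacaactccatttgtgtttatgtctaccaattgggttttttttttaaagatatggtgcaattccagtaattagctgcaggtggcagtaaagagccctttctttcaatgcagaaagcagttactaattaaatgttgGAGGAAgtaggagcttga
Myd88, chr9:119340042-119340268, minus strand, interferon regulatory factor motif: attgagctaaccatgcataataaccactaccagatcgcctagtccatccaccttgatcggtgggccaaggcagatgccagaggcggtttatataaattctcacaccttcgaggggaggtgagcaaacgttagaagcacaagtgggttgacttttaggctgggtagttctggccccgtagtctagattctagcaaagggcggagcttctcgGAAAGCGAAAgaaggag
A match is a description of these letters, and binding was not measured here.

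Libraries held 6.19 to 16.02 M recovered reads (median 10.9 M). In 4 libraries a component with 25.5% of the spread within groups stood apart at its low end. They were Wild-type + PLX5622 hippocampus r1, Wild-type + PLX5622 thalamus r4, 5xFAD thalamus r2 and Wild-type thalamus r4. Their scores were -47.31 to -36.22, and the other libraries ran from -21.25 to 34.07. Ubxn4 read 9.12 to 11.1 RPKM (reads per kilobase of gene and per M reads) in these 4. Liver transcripts (Alb, Apoa1, Apoa2 and Fgb) summed to 1003 and 187 RPKM in 5xFAD + PLX5622 hippocampus r3 and r4, against 0.295 to 69.7 RPKM (median 2.20) in the 44 libraries outside that group. Of 10 microglial markers all were present, and they summed to 9.13 to 14.7, 13.9 to 48.9 and 8.01 to 13.6 RPKM in 5xFAD + PLX5622 cortex, hippocampus and thalamus, against 112 to 140, 125 to 157 and 106 to 126 RPKM in 5xFAD. Border macrophage markers, 5 of 6 present, moved the same way, at 0.103 to 0.397 RPKM in 5xFAD + PLX5622 cortex and 2.37 to 3.03 RPKM in 5xFAD cortex. Of 7 markers of B and T cells the table listed 0, and of 7 of blood monocytes and neutrophils it listed 1, at 0 to 0.442 RPKM. Thalamus markers summed to at most 37.0 RPKM in cortex and overlapped between hippocampus and thalamus libraries (26.4 to 138 and 57.8 to 267 RPKM), so these genes did not separate those dissections. Cortex markers overlapped between cortex and hippocampus libraries (101 to 149 and 48.9 to 154 RPKM) and did not separate those either.

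Ly86 was the most abundant member in untreated mice and Tlr1 the least. On mm10 Ly86 lies at chr13:37345345-37419036, Tlr2 at chr3:83836272-83841824 and Tlr4 at chr4:66827551-66846581, and Tlr7 (chrX:167303380-167330574) and Tlr13 (chrX:106143275-106160493) are both on the X chromosome. Group means in RPKM ran over 0.194 to 19.8 for Ly86, 2.75 to 3.68 for Tlr3, 1.55 to 2.30 for Myd88, 0.0901 to 2.98 for Cd14, 0.0305 to 2.34 for Tlr7, 0.0347 to 1.56 for Tlr13, 0.102 to 1.38 for Tlr2, 0.333 to 0.953 for Tlr4, 0.0345 to 0.865 for Tlr9 and 0.0215 to 0.611 for Tlr1. For Tlr1, Tlr2, Tlr4, Tlr7, Tlr9, Tlr13, Cd14 and Ly86 the 3 untreated 5xFAD groups held the first 3 places. In that order most neighbours overlapped. Libraries stood apart at the end of these 3 places for Tlr7 (5xFAD thalamus above Wild-type cortex), Tlr9 (5xFAD cortex above Wild-type hippocampus) and Ly86 (5xFAD thalamus above Wild-type thalamus), and for Ly86 also between 5xFAD + PLX5622 hippocampus and 5xFAD + PLX5622 cortex. Tlr3 and Myd88 had no such order, and Tlr3 was highest in Wild-type hippocampus.

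**Figure D1:**
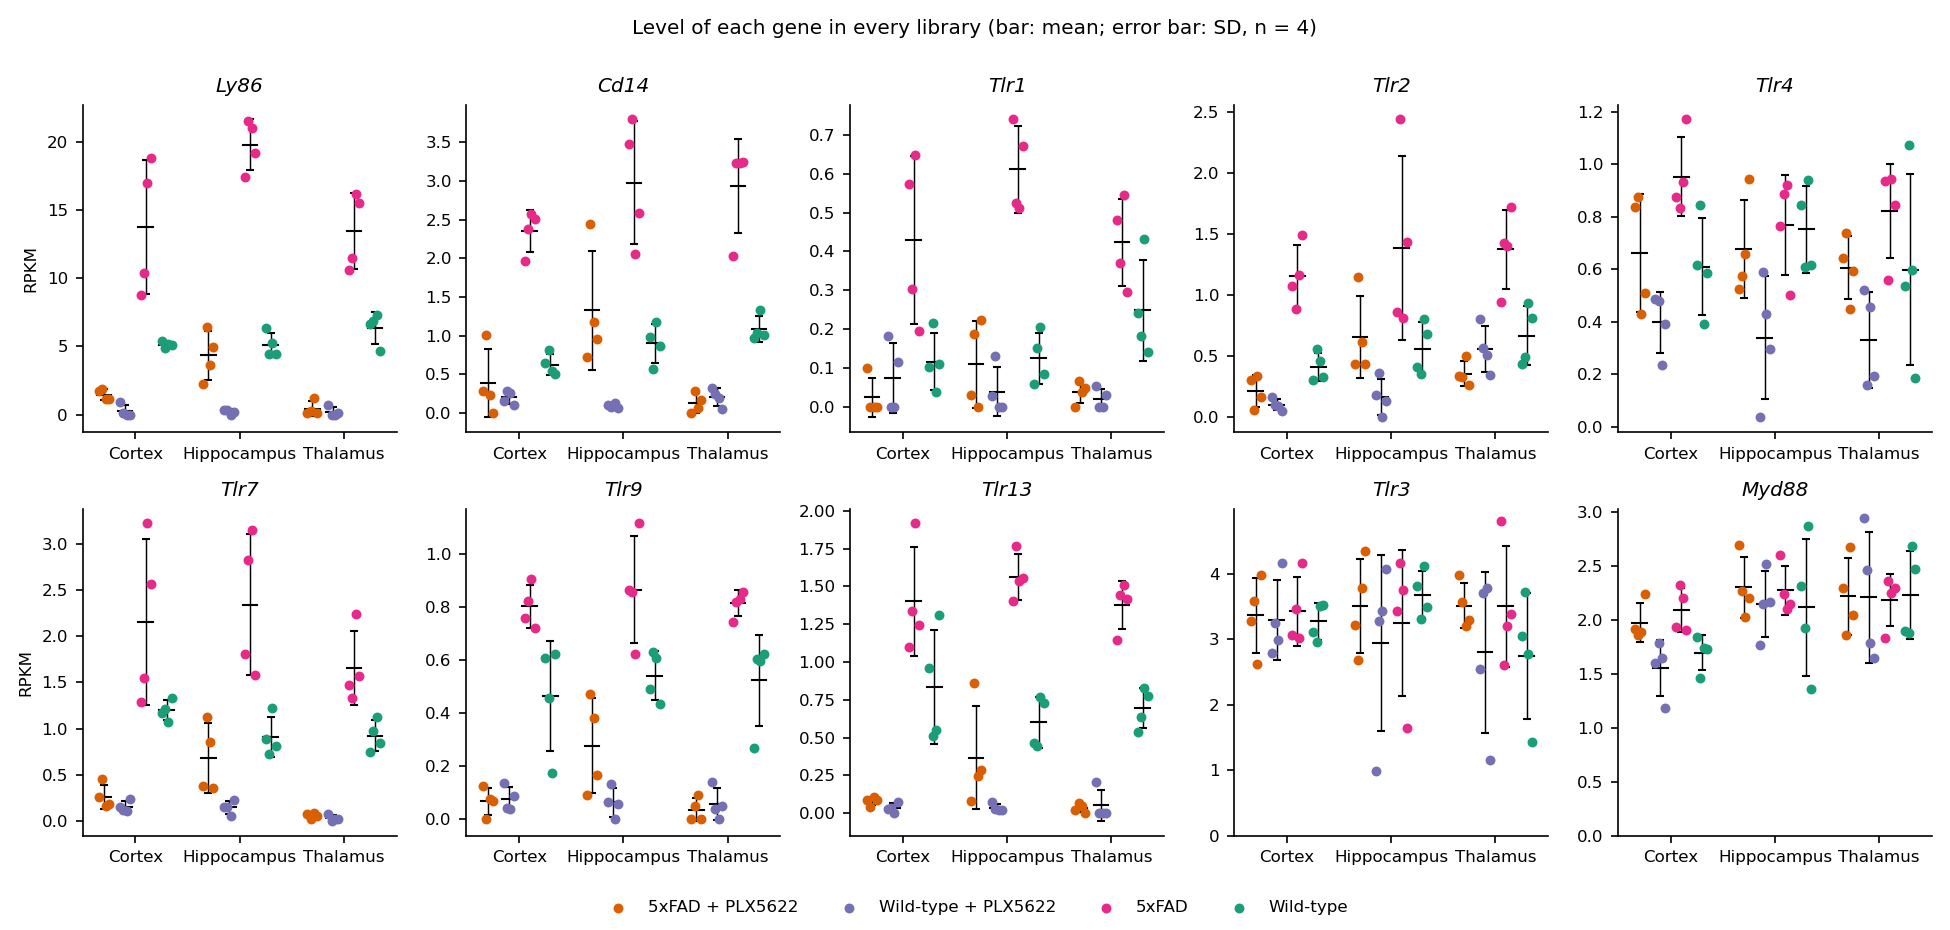
Level of the 10 members in RPKM in each of the 48 libraries, by region and group, points being libraries, bars group means and error bars SD. Ly86 sits between 8.76 and 21.5 in every untreated 5xFAD library, while the Tlr3 ranges of all groups overlap. Myd88 groups overlap within hippocampus and within thalamus. In cortex Myd88 is higher in 5xFAD (1.90 to 2.32) than in Wild-type (1.46 to 1.84) without overlap. The same holds for 5xFAD + PLX5622 (1.855 to 2.243) and Wild-type + PLX5622 (1.184 to 1.788).

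In 5xFAD cortex 3 of the 10 members rose against Wild-type, in hippocampus 5 rose, and in thalamus 0 passed the test (limma, adjusted p under 0.05). Over all 15975 genes tested the shares called higher were 0.714%, 1.54% and 0.407% in the same order. Median log2 fold changes of the members, on the log2(RPKM + 0.1) scale used for every fold change here, were 0.76, 1.17 and 0.70, and those of all genes lay within 0.01 of 0. In thalamus 4 members were under an unadjusted p of 0.05 by limma, beside 459 of all genes, and voom on recovered reads called 3 members. Libraries did not overlap for 5, 6 and 6 members, and the share of all genes without overlap was not counted. Microglial markers, 10 of 10 present, moved the same way, summing to 112 to 140, 125 to 157 and 106 to 126 RPKM in 5xFAD cortex, hippocampus and thalamus, against 77.5 to 86.8, 75.1 to 84.0 and 74.8 to 79.9 RPKM in Wild-type, and their part in the member differences was not tested. In bulk tissue more cells of a type and more RNA per cell cannot be told apart, and the same holds for fewer and less.

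Of the partners, Cd14 rose in cortex and hippocampus, Ly86 rose in hippocampus, and the adaptor Myd88 passed in no region. Cd14 read 1.97, 2.38, 2.57 and 2.51 RPKM in 5xFAD cortex against 0.645, 0.807, 0.538 and 0.503 RPKM in Wild-type cortex (log2 fold change 1.77, SE 0.42, adjusted p = 0.00644 by limma, n = 4 each). In hippocampus it read 3.47, 3.79, 2.06 and 2.59 RPKM in 5xFAD and 0.981, 0.573, 1.18 and 0.865 RPKM in Wild-type (log2 fold change 1.62, SE 0.42, adjusted p = 0.014 by limma). Every 5xFAD library was above every Wild-type library in both regions, and also in thalamus, at 2.03 to 3.24 RPKM in 5xFAD and 0.965 to 1.34 RPKM in Wild-type, where the test was missed (1.34, limma adjusted p = 0.0533). Ly86 read 17.4, 21.5, 21.0 and 19.2 RPKM in 5xFAD hippocampus against 6.36, 4.46, 5.22 and 4.44 RPKM in Wild-type hippocampus (log2 fold change 1.94, SE 0.56, adjusted p = 0.034 by limma). The 2 groups did not overlap in any region. In cortex Ly86 read 8.76, 10.3, 17.0 and 18.8 RPKM in 5xFAD and 5.37, 4.85, 5.15 and 5.10 RPKM in Wild-type, yet did not pass (1.34, SE 0.56, limma adjusted p = 0.197). The SE of a gene is shared by all 12 groups in this fit, and Ly86 ran over 0 to 0.941 RPKM within Wild-type + PLX5622 cortex alone. Ly86 in cortex was called by voom (adjusted p = 0.000767), by limma with only the 2 groups fitted (adjusted p = 0.0143) and by limma at a pseudocount of 1 (adjusted p = 0.000678). In thalamus Ly86 had a log2 fold change of 1.07 (limma adjusted p = 0.352), and it was called under the same 3 alternatives (adjusted p of 0.00159 to 0.0245).

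Of the surface receptors, Tlr1 and Tlr2, which pair to bind bacterial lipopeptides, rose and Tlr4, the lipopolysaccharide receptor, did not pass. Tlr2 read 1.07, 0.881, 1.16 and 1.49 RPKM in 5xFAD cortex against 0.308, 0.554, 0.458 and 0.330 RPKM in Wild-type cortex, with no overlap (log2 fold change 1.29, SE 0.36, adjusted p = 0.0259 by limma). In hippocampus and thalamus its libraries did not overlap either, at 0.810 to 2.44 and 0.945 to 1.72 RPKM in 5xFAD and 0.355 to 0.803 and 0.434 to 0.934 RPKM in Wild-type, but the limma adjusted p was 0.0713 and 0.125. Tlr1 read 0.739, 0.525, 0.510 and 0.670 RPKM in 5xFAD hippocampus against 0.0602, 0.152, 0.206 and 0.0841 RPKM in Wild-type hippocampus (log2 fold change 1.69, SE 0.37, adjusted p = 0.00331 by limma). These did not overlap, while in cortex the lowest 5xFAD library (0.195 RPKM) was under the highest Wild-type library (0.217 RPKM; log2 fold change 1.25, SE 0.37, adjusted p = 0.0398 by limma). Tlr4 read 0.953 ± 0.150 RPKM in 5xFAD cortex and 0.610 ± 0.186 RPKM in Wild-type cortex (mean ± SD, n = 4 each), overlapping, with log2 fold changes of 0.59, 0.02 and 0.54 in cortex, hippocampus and thalamus (limma adjusted p of at least 0.441).

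Among the endosomal receptors Tlr7 and Tlr13 rose in hippocampus. Tlr7, a receptor of single-stranded RNA, read 1.81, 2.82, 3.15 and 1.58 RPKM in 5xFAD hippocampus against 0.887, 0.728, 1.22 and 0.807 RPKM in Wild-type hippocampus (log2 fold change 1.24, SE 0.29, adjusted p = 0.007 by limma). Tlr13, the mouse receptor of bacterial ribosomal RNA, read 1.40, 1.77, 1.54 and 1.55 RPKM in 5xFAD hippocampus against 0.462, 0.447, 0.768 and 0.726 RPKM in Wild-type hippocampus (log2 fold change 1.28, SE 0.33, adjusted p = 0.0154 by limma). Neither overlapped there. In cortex and thalamus the log2 fold changes were 0.71 and 0.77 for Tlr7 and 0.74 and 0.90 for Tlr13 (limma adjusted p of at least 0.12). Tlr9, the receptor of unmethylated CpG DNA, had values of 0.77, 0.58 and 0.60 (limma adjusted p of at least 0.195). Tlr3, which binds double-stranded RNA, had values of 0.06, -0.25 and 0.38. Those of Myd88 were 0.29, 0.14 and -0.02 (limma adjusted p of at least 0.432 for both genes). In cortex the Myd88 libraries did not overlap, at 1.90 to 2.32 RPKM in 5xFAD and 1.46 to 1.84 RPKM in Wild-type.

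The 5xFAD calls moved with the processing. In cortex 3 members became 0 with a pseudocount of 0.01 or each region fitted alone, 7 with a pseudocount of 1, 1 with the comparison adjusted by itself, and 1 without 5xFAD cortex r3, Wild-type cortex r1 or Wild-type cortex r4. In hippocampus 5 members became 0 with a pseudocount of 0.01, 2 with each region fitted alone, 3 with the comparison adjusted by itself, and 2 without Wild-type hippocampus r2. Ly86 in hippocampus was lost without any of 7 of its 8 libraries, Wild-type r1 being the exception, at log2 fold changes of 1.88 to 2.00 (limma adjusted p of 0.0525 to 0.0756). Tlr1 in cortex was lost without 5xFAD r1 or r3 or Wild-type r1, r3 or r4, and Tlr2 in cortex without 5xFAD r3 or r4 or Wild-type r1 or r4. Tlr13 in hippocampus was lost without Wild-type r1 or r2, and Cd14 in hippocampus without Wild-type r2. Cd14 in cortex and Tlr1 and Tlr7 in hippocampus held whichever library was left out. No 5xFAD effect differed between regions by its own test (0 of 10 members in each of 3 differences, none at an unadjusted limma p under 0.05, voom 0), and over all genes 0% differed in each.

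In 5xFAD mice PLX5622 lowered 7 of the 10 members in cortex, 5 in hippocampus and 7 in thalamus. There 2.05%, 2.27% and 2.42% of all genes were called lower. The 5 that fell in all 3 regions were Tlr1, Tlr7, Tlr9, Tlr13 and Ly86, and Tlr2 and Cd14 fell in cortex and thalamus. None rose. Medians were -2.28, -1.34 and -2.37 for the members and within 0.02 of 0 for all genes. Dividing the treated by the untreated mean of each member, genotype and region, 41 of 60 values over both genotypes were under 50%. The same share was not counted for all genes.

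Ly86 read 1.74, 1.86, 1.14 and 1.16 RPKM in 5xFAD + PLX5622 cortex against the 8.76 to 18.8 RPKM of 5xFAD cortex, which left 10.7% (log2 fold change -3.10, SE 0.56, adjusted p = 0.000352 by limma). In hippocampus it read 2.26, 6.46, 3.65 and 4.98 RPKM in 5xFAD + PLX5622 against 17.4 to 21.5 RPKM in 5xFAD, which left 21.9% (log2 fold change -2.26, SE 0.56, adjusted p = 0.0109 by limma). In thalamus the values were 0.0954, 0.259, 1.23 and 0.124 RPKM in 5xFAD + PLX5622 against 10.6 to 16.2 RPKM in 5xFAD, which left 3.17% (log2 fold change -5.13, SE 0.56, adjusted p = 3.91e-08 by limma). No treated library reached an untreated one in any region, and thalamus r3 was high among the treated. Cd14 read 0.290, 1.01, 0.234 and 0 RPKM in 5xFAD + PLX5622 cortex and 0, 0.288, 0.0682 and 0.165 RPKM in 5xFAD + PLX5622 thalamus, all under the 5xFAD libraries of the same region (log2 fold changes -2.82 and -3.87, limma adjusted p = 1.53e-05 and 2.64e-08). In hippocampus Cd14 read 0.728, 2.44, 1.18 and 0.957 RPKM in 5xFAD + PLX5622 against 3.47, 3.79, 2.06 and 2.59 RPKM in 5xFAD. There r2 overlapped the untreated group, 44.5% was left, and the test was missed (-1.21, limma adjusted p = 0.0905).

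Tlr7 read 0.374, 1.13, 0.854 and 0.357 RPKM in 5xFAD + PLX5622 hippocampus (log2 fold change -1.73, SE 0.29, adjusted p = 0.000143 by limma), against 1.58 to 3.15 RPKM in 5xFAD hippocampus. In thalamus it read 0.0762, 0.0230, 0.0817 and 0.0495 RPKM in 5xFAD + PLX5622 against 1.34 to 2.24 RPKM in 5xFAD (log2 fold change -3.47, SE 0.29, adjusted p = 9.99e-11 by limma). Treated and untreated libraries were far apart in thalamus, and the hippocampal r2 and r3 were the highest treated ones. Tlr13 kept 5.78%, 23.5% and 2.52% in cortex, hippocampus and thalamus, and Tlr9 8.33%, 32.0% and 4.23%, with no overlap in any region. Their log2 fold changes in this order were -3.04, -2.09 and -3.48, and -2.49, -1.47 and -2.82 (limma adjusted p of at most 0.00329). Tlr9 and Tlr13 in treated thalamus rest on 5 and 6 reads over 4 libraries, or 3.66% (1.17 to 8.76%) and 2.24% (0.814 to 4.94%) of the summed reads by the 95% counting interval.

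Tlr2 read 0.304, 0.0590, 0.337 and 0.162 RPKM in 5xFAD + PLX5622 cortex (log2 fold change -2.07, SE 0.36, adjusted p = 0.000195 by limma) and 0.333, 0.332, 0.50 and 0.260 RPKM in 5xFAD + PLX5622 thalamus (log2 fold change -1.69, SE 0.36, adjusted p = 0.00247 by limma). These did not reach the 5xFAD libraries, at 0.881 to 1.49 and 0.945 to 1.72 RPKM. In hippocampus it read 0.436, 1.15, 0.619 and 0.435 RPKM in 5xFAD + PLX5622 and 0.857, 2.44, 0.810 and 1.43 RPKM in 5xFAD, overlapping (-0.93, limma adjusted p = 0.147). Tlr1 fell in all 3 regions (-2.05, -1.92 and -1.92, limma adjusted p of at most 0.000801), but treated cortex held 3 reads in all against 46 untreated, or 7.03% (1.4 to 21.9%). Tlr4 kept 69.6%, 88.0% and 73.9% without passing, at log2 fold changes of -0.50, -0.16 and -0.38 (limma adjusted p of at least 0.552). Tlr3 kept 98.2%, 108% and 100%, and Myd88 94.4%, 101% and 102%, with overlapping libraries and log2 fold changes between -0.08 and 0.16. Per sample Myd88 read 1.92, 1.85, 1.88 and 2.24 RPKM in 5xFAD + PLX5622 cortex and 1.93, 2.32, 2.20 and 1.90 RPKM in 5xFAD cortex. A summed level of 8 microglial genes kept 4.74%, 17.4% and 2.12% in the same regions.

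**Figure D2:**
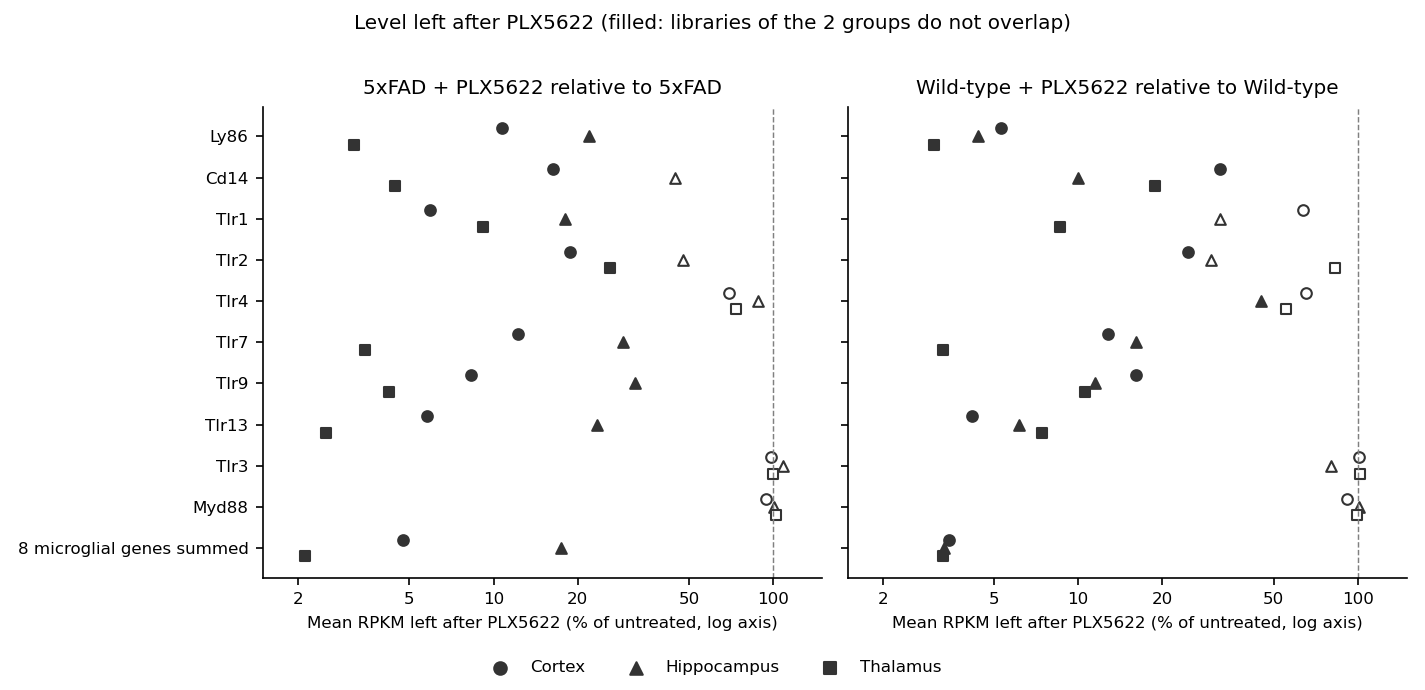
Level left after PLX5622, in percent: mean RPKM of the 4 treated libraries over that of the 4 untreated ones, by genotype and region, for each member and for 8 summed microglial genes, on a log axis and filled where treated and untreated libraries did not overlap. Tlr3 and Myd88 lie near 100% in 5xFAD, and Tlr7, Tlr9, Tlr13 and Ly86 lie at 21.9% to 32.0% in 5xFAD hippocampus and at 12.2% or less in 5xFAD cortex and thalamus.

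In Wild-type mice PLX5622 lowered 5 members in cortex, 7 in hippocampus and 6 in thalamus, beside 1.34%, 2.44% and 3.30% of all genes. Tlr7, Tlr9, Tlr13 and Ly86 fell in all 3 regions, Cd14 in hippocampus and thalamus, Tlr2 in cortex and hippocampus, Tlr1 in thalamus and Tlr4 in hippocampus. Ly86 read 0.367, 0.342, 0 and 0.192 RPKM in Wild-type + PLX5622 hippocampus against 6.36, 4.46, 5.22 and 4.44 RPKM in Wild-type hippocampus (log2 fold change -4.21, SE 0.56, adjusted p = 2.34e-06 by limma). It kept 5.29%, 4.40% and 3.06% in cortex, hippocampus and thalamus, and 8 microglial genes kept 3.45%, 3.31% and 3.30%. Tlr4 read 0.0380, 0.590, 0.431 and 0.299 RPKM in Wild-type + PLX5622 hippocampus against 0.844, 0.608, 0.939 and 0.617 RPKM in Wild-type hippocampus, without overlap (log2 fold change -1.16, SE 0.36, adjusted p = 0.0486 by limma). That call was held under 6 of 16 alternatives and with 14 of 48 libraries left out in turn, being lost also without libraries of other groups. In r1, 1 of the 4 libraries that stand apart, Tlr4 had 2 reads, and without it the value was -0.67 (limma adjusted p = 0.299). Single libraries also decided Tlr2 in cortex (Wild-type r2 or r3, or Wild-type + PLX5622 r4), Tlr2 in hippocampus (Wild-type + PLX5622 r3) and Tlr1 in thalamus (Wild-type r3), with limma adjusted p of 0.0508 to 0.0867 without them. Tlr1 in Wild-type thalamus held 3 reads with treatment against 32 without, or 10.5% (2.06 to 33.6%).

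The PLX5622 effects of the 2 genotypes were not told apart for any member by the interaction test (0 of 10 in each region by limma, 2 in each at an unadjusted p under 0.05, and 0 by voom), where 0%, 0.332% and 0.00626% of all genes in cortex, hippocampus and thalamus differed. Values at an unadjusted p under 0.05 were -1.65 for Tlr1 and -1.52 for Cd14 in cortex, -1.19 for Tlr1 and 1.96 for Ly86 in hippocampus, and -1.47 for Tlr2 and -1.83 for Cd14 in thalamus (limma adjusted p of 0.235 or more). A positive value means a smaller fall in 5xFAD. Of the 15975 genes tested, 406, 2376 and 436 were under the same unadjusted limma p in cortex, hippocampus and thalamus.

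Under treatment, 5xFAD hippocampus held more of 5 members than Wild-type hippocampus. Against Wild-type + PLX5622, 1 member was called higher in 5xFAD + PLX5622 cortex, 5 in hippocampus and 0 in thalamus, beside 0.0626%, 0.764% and 0.0313% of all genes. In thalamus 1 member was at an unadjusted limma p under 0.05, beside 1870 of the 15975 genes, and voom called 0. Ly86 read 2.26, 6.46, 3.65 and 4.98 RPKM in 5xFAD + PLX5622 hippocampus against 0.367, 0.342, 0 and 0.192 RPKM in Wild-type + PLX5622 hippocampus (log2 fold change 3.90, SE 0.56, adjusted p = 1.79e-05 by limma). Cd14 read 0.728, 2.44, 1.18 and 0.957 RPKM in 5xFAD + PLX5622 hippocampus against 0.0977, 0.0759, 0.123 and 0.0640 RPKM in Wild-type + PLX5622 hippocampus (log2 fold change 2.78, SE 0.42, adjusted p = 3.44e-05 by limma). Both were far apart, with r2 the highest treated 5xFAD library. Tlr2, Tlr7 and Tlr13 were also higher there, by 1.60, 1.58 and 1.52 (limma adjusted p = 0.0127, 0.00111 and 0.00997), with no overlap. Tlr9 missed the test (1.14, limma adjusted p = 0.104), as did Tlr4 (1.01, limma adjusted p = 0.247). In cortex Ly86 read 1.74, 1.86, 1.14 and 1.16 RPKM in 5xFAD + PLX5622 and 0.941, 0.142, 0 and 0 RPKM in Wild-type + PLX5622 (log2 fold change 2.78, SE 0.56, adjusted p = 0.0264 by limma).

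**Figure D3:**
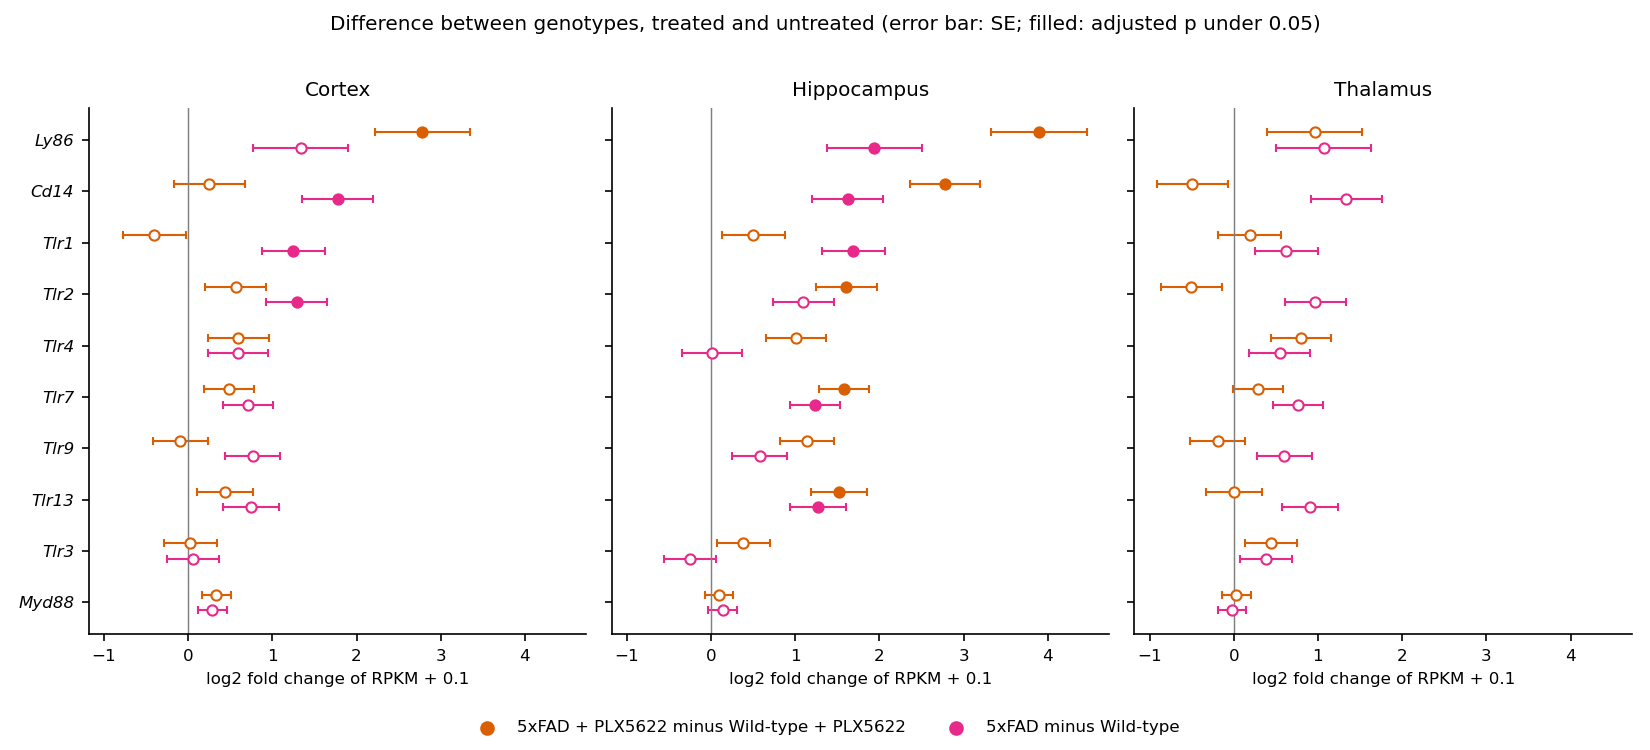
Log2 fold change with its standard error (bar) for each member, by region, of 5xFAD against Wild-type and of 5xFAD + PLX5622 against Wild-type + PLX5622, filled where the adjusted p was under 0.05. Under treatment the hippocampal value of Ly86 (3.90) is the farthest right, followed by Cd14 in hippocampus and Ly86 in cortex (both 2.78).

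Microglial genes moved with these values. A sum of 8 microglial genes read 9.31, 37.4, 18.4 and 15.3 RPKM in 5xFAD + PLX5622 hippocampus r1 to r4, against 3.99, 1.66, 1.14 and 1.98 RPKM in Wild-type + PLX5622 hippocampus, and liver transcripts read 2.24, 5.44, 1003 and 187 RPKM in the 5xFAD + PLX5622 libraries. The part of either in the member differences was not tested, and without r3 and r4 all of the 5 hippocampal calls but that of Tlr13 held (1.61, limma adjusted p = 0.0557). The 5 calls became 3 without 5xFAD + PLX5622 hippocampus r2, which lost Tlr2 and Tlr13, and Tlr2 was also lost without Wild-type + PLX5622 hippocampus r3 (limma adjusted p = 0.123). They became 2 with a pseudocount of 1, each region fitted alone or voom, and 0 with only the 2 groups fitted. The cortex call of Ly86 was lost under 5 of 16 alternatives and without any of 7 libraries (5xFAD + PLX5622 cortex r1 to r4 and Wild-type + PLX5622 cortex r2 to r4).

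Within treated 5xFAD mice, hippocampus was higher than cortex for 5 members (Tlr2, Tlr7, Tlr9, Tlr13 and Cd14, beside 5.42% of all genes) and higher than thalamus for 5 (Tlr7, Tlr9, Tlr13, Cd14 and Ly86, beside 13.8%). Against thalamus the log2 fold changes were 3.45 for Ly86, 2.67 for Cd14, 2.19 for Tlr7, 1.55 for Tlr13 and 1.40 for Tlr9 (limma adjusted p of at most 0.000953), and no libraries overlapped. All 5 held whichever library was left out. Against cortex they were 1.90 for Cd14, 1.28 for Tlr2, 1.12 for Tlr13, 1.10 for Tlr9 and 1.03 for Tlr7 (limma adjusted p of at most 0.0314), and only Tlr2 of these did not overlap. The 5 calls against cortex became 0 without the 2 libraries with liver transcripts, and 1 to 3 without 5xFAD + PLX5622 cortex r2, r3 or r4 or hippocampus r2 or r3. Ly86 was not called against cortex, yet its libraries did not overlap, at 2.26 to 6.46 RPKM in hippocampus and 1.14 to 1.86 RPKM in cortex. At a pseudocount of 1 it was called (1.06, limma adjusted p = 0.00534).

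Without treatment no member passed the test between regions in either genotype (0 of 10 by limma in each of 6 comparisons). Libraries of Wild-type cortex and thalamus did not overlap for Cd14 (0.50 to 0.81 and 0.965 to 1.34 RPKM) and Myd88 (1.46 to 1.84 and 1.88 to 2.68 RPKM). Those of 5xFAD hippocampus and thalamus did not overlap for Ly86 (17.4 to 21.5 and 10.6 to 16.2 RPKM). Hippocampus against cortex, hippocampus against thalamus and cortex against thalamus called 5.36%, 5.49% and 12% of all genes in 5xFAD and 4.31%, 11.3% and 18.2% in Wild-type. At an unadjusted p under 0.05 there was 1 member, Myd88 in Wild-type cortex against thalamus (-0.37, limma adjusted p = 0.26), where 6760 of the 15975 genes were under it. Voom called 1 member, Ly86 in 5xFAD hippocampus against cortex.

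Set against the mean log2 level of 8 microglial genes in the same library, the members were compared between 5xFAD and Wild-type. Of 30 values, 3 regions for each member, 13 had libraries that did not overlap, each with an exact two-sided permutation p of 0.0286, the smallest that 4 against 4 allows, and adjusted p of 0.0659 over the 30, so none passed 0.05. The share of all genes without overlap on this scale was not counted, so the 13 cannot be called particular to the members. The 13 differences, 5xFAD minus Wild-type on the log2 scale, were 0.80, 1.20 and 0.49 for Ly86 and 1.24, 0.88 and 0.76 for Cd14 in cortex, hippocampus and thalamus. They were 0.75 for Tlr2 in cortex, and 0.95 for Tlr1 and 0.53 for Tlr13 in hippocampus. Values below 0 were those of Tlr3 in cortex (-0.49) and hippocampus (-0.99), Tlr4 in hippocampus (-0.73) and Myd88 in thalamus (-0.60). The mean log2 level of the 8 microglial genes was itself higher in 5xFAD. It was 3.47, 3.57 and 3.33 in 5xFAD cortex, hippocampus and thalamus and 2.93, 2.83 and 2.75 in Wild-type. A gene with an unchanged level therefore falls below 0 on this scale. For Tlr7 and Tlr9 the libraries overlapped in all 3 regions.

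**Figure D4:**
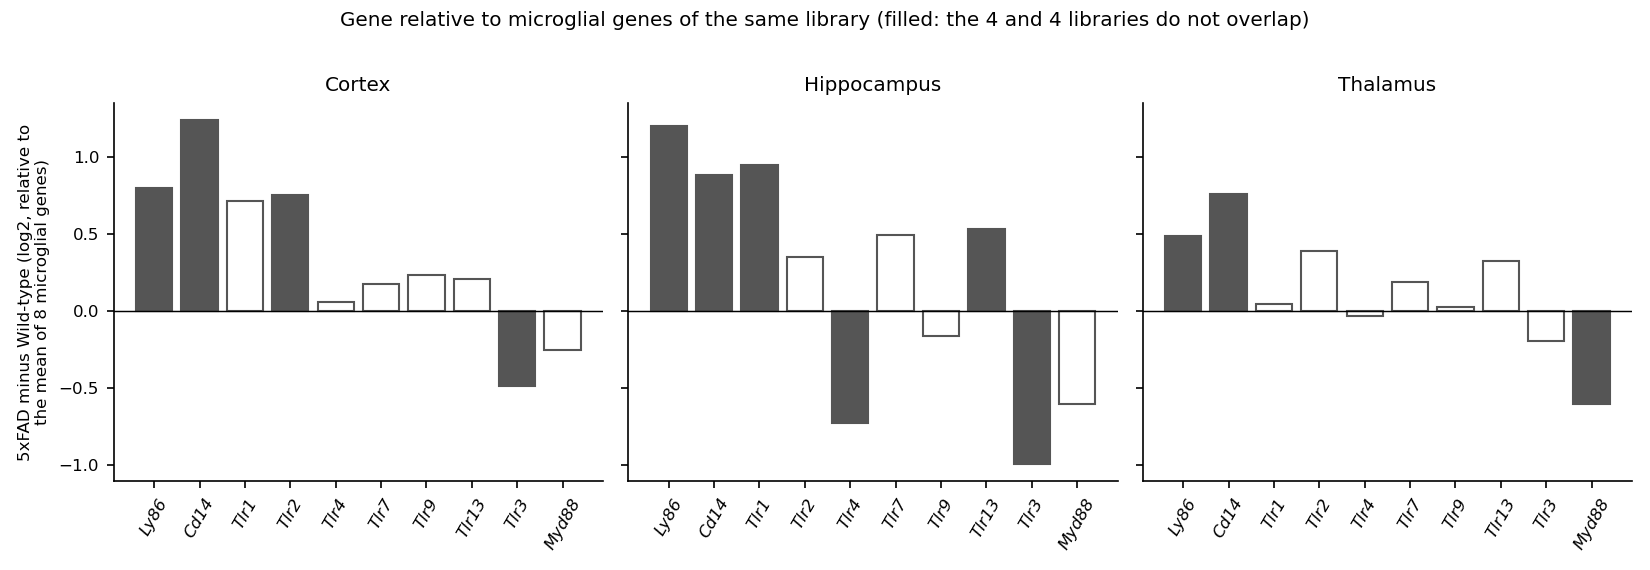
Log2 level of each member relative to the mean log2 level of 8 microglial genes in the same library, as bars of the untreated 5xFAD mean minus the Wild-type mean, by region, filled where the libraries did not overlap. The bars of Ly86 and Cd14 stand at 0.49 to 1.24 in the 3 regions and that of Tlr3 in hippocampus at -0.99. None passed 0.05 once adjusted over the 30 values. The microglial mean was itself higher in 5xFAD, so a gene with an unchanged level falls below 0.

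Over the 48 libraries, which share groups, regions and depth, correlations between members ran from 0.958 down to -0.0168. Tlr7, Tlr9, Tlr13 and Ly86 correlated with one another at Pearson r of 0.903 to 0.958 and with Cd14 at 0.849 to 0.880. With these genes Tlr1 correlated at 0.778 to 0.836, Tlr2 at 0.675 to 0.772 and Tlr4 at 0.496 to 0.606. Myd88 reached at most 0.365 with any member, and Tlr3 reached 0.641 with Tlr4 and at most 0.144 with the others. Of genes with a mean of at least 0.5 RPKM, the closest to Ly86 were Mpeg1 (0.981), C1qa (0.976) and C1qc (0.972). Among the closest to Tlr13 were Pik3cg (0.976) and Laptm5 (0.969), and among those to Tlr1 Rasal3 (0.860) and Gna15 (0.847). The closest to Tlr7 were Inpp5d (0.959), Fcgr3 (0.956) and Gpr34 (0.955), and to Tlr9 they were Tlr13 itself (0.958), Dock8 and Pik3cg (both 0.954). Cd14 was closest to Slc11a1 and Cd180 (both 0.930) and Slc15a3 (0.927), and Tlr2 to Itgb5 (0.896), AU020206 (0.876) and Gusb (0.869). Tlr4 was closest to Pde3b (0.744), Snap23 (0.732) and Trim12c (0.719), and Myd88 to Ltbr (0.658), Aldh3b1 (0.651) and Msrb1 (0.630). Tlr3 was closest to Ubxn4 (0.883), Ogfrl1 (0.882) and Tjp1 (0.881). These 3 genes are low in the 4 libraries that stand apart, where Tlr3 read 0.997 RPKM in Wild-type + PLX5622 hippocampus r1, 1.16 in Wild-type + PLX5622 thalamus r4, 2.61 in 5xFAD thalamus r2 and 1.44 in Wild-type thalamus r4.

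**Figure D5:**
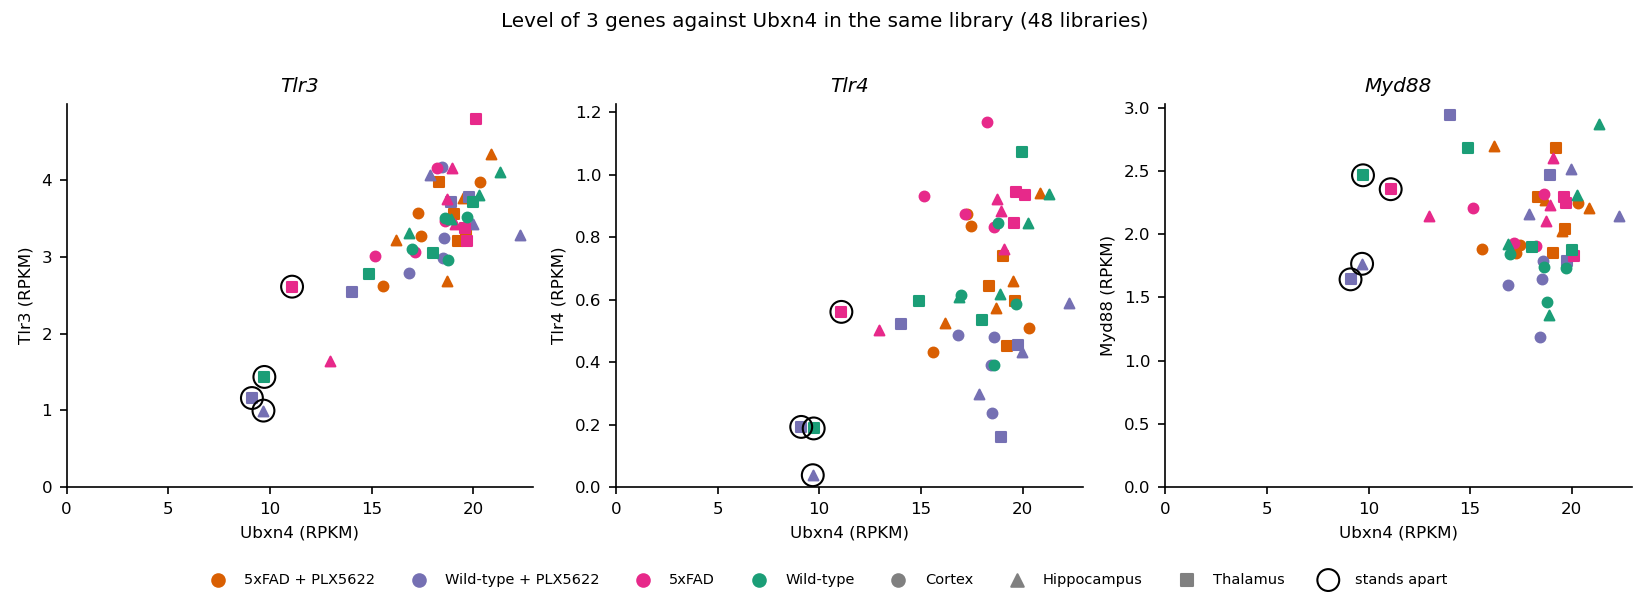
Tlr3, Tlr4 and Myd88 level against Ubxn4 level, in RPKM, in the 48 libraries, with the 4 libraries that stand apart marked. Those 4 have the lowest Ubxn4 (9.12 to 11.1), and 3 of them have the lowest Tlr3 (0.997, 1.16 and 1.44).

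Other genes of the pathway were counted in lists drawn up by role. Of all genes, 0.714%, 1.54% and 0.407% were called higher in 5xFAD in cortex, hippocampus and thalamus. Those called lower with PLX5622 were 2.05%, 2.27% and 2.42% in 5xFAD and 1.34%, 2.44% and 3.30% in Wild-type. Of 5 other Toll-like receptors the table held Tlr5 (0 to 0.362 RPKM) and Tlr12 (0.0276 to 0.656 RPKM), and Tlr12 fell with PLX5622 in 5xFAD cortex (0.0699 ± 0.0439 RPKM in 5xFAD + PLX5622 against 0.469 ± 0.0643 RPKM in 5xFAD) and thalamus. Of 10 accessory proteins 1 rose in 5xFAD in each region, Cd180, the partner of Ly86. It read 4.22 ± 0.694 RPKM in 5xFAD hippocampus against 1.09 ± 0.217 RPKM in Wild-type hippocampus (mean ± SD over 4 libraries each; 1.87 on the log2 scale, limma adjusted p = 0.00194). With PLX5622 in 5xFAD 2, 2 and 3 of the 10 fell in cortex, hippocampus and thalamus, and the same numbers in Wild-type: Cd180 and Unc93b1, which carries the endosomal receptors to their compartment, in every region, and Nrros in thalamus. Unc93b1 read 1.24 ± 0.395 RPKM in 5xFAD + PLX5622 cortex and 6.16 ± 0.591 RPKM in 5xFAD cortex (-2.26, limma adjusted p = 3.27e-08). Medians over the list lay between -0.46 and 0.14 in these comparisons.

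Of 22 adaptors and kinases 0 were called in 5xFAD against Wild-type in any region by limma (3, 5 and 0 at an unadjusted p under 0.05 in cortex, hippocampus and thalamus, and 0, 2 and 0 by voom), and with PLX5622 3, 2 and 3 fell in cortex, hippocampus and thalamus in each genotype. These were Btk, Pik3ap1 and, outside hippocampus, Ticam2, and list medians lay within 0.09 of 0. Of all 15975 genes, 680, 1971 and 459 were under the unadjusted limma p in 5xFAD against Wild-type, by region in the same order. Btk, a kinase of myeloid and B cells, read 0.0424 ± 0.0323 RPKM in 5xFAD + PLX5622 cortex against 0.801 ± 0.135 RPKM in 5xFAD cortex. Of 11 transcription factors Irf8, a myeloid factor, rose in 5xFAD in all 3 regions and Irf7 in cortex, and PLX5622 lowered Irf8 and Irf5 in all 6 comparisons and Irf7 in 5xFAD cortex. Irf8 read 5.33 ± 1.25 RPKM in 5xFAD hippocampus against 1.64 ± 0.349 RPKM in Wild-type hippocampus (1.64, limma adjusted p = 0.000683). Of 11 inhibitors tested 1 was called in these 9 comparisons, Tnfaip3, lower with PLX5622 in Wild-type thalamus. Of 5 induced cytokines and chemokines tested Ccl3 rose in 5xFAD in each region, at 4.50 ± 1.60 RPKM in 5xFAD hippocampus against 0.0489 ± 0.0979 RPKM in Wild-type hippocampus. With PLX5622 Ccl3 fell in 5xFAD cortex (-2.16, limma adjusted p = 0.0381) and thalamus (-3.51, limma adjusted p = 0.00034), and Il1a fell in all 6 comparisons, listed at 0 in every library of 5xFAD + PLX5622 thalamus and of Wild-type + PLX5622 cortex and hippocampus.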

How the data were processed

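RNA of 48 mouse brain libraries was sequenced as 50-base single reads, in 4 pools on 4 lanes whose members are not named. The authors aligned reads to mm10 with STAR, counted them per gene with featureCounts, removed low genes, scaled libraries with edgeR and deposited 1 table of RPKM (reads per kilobase of gene and per M reads). Tool versions and the strand setting of the counting are not given in the sources used here. The labels name Trizol and a TruSeq kit, the study's methods a Qiagen kit and KAPA RiboErase. Reads were recovered from the RPKM steps, and 16014 of 16014 genes came out whole within 0.05 reads, summing to 89.4 to 106.9% of the library size.

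Genes with at least 0.2 RPKM in at least 4 libraries (15975) were tested on log2(RPKM + 0.1) in one group-means model with limma 3.58.1 (R 4.3.3), trend included. The 15 comparisons of the study were Benjamini-Hochberg adjusted together and the others each by itself, at 0.05. Single values took an exact permutation test. Tables were made in Python 3.11.15 (pandas 2.3.3, numpy 2.4.6, scipy 1.17.1) and plots with matplotlib 3.10.9, and the fit was tested on simulated data.

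All 10 members are named whatever their values, with up to 4 called genes per list and comparison and the 3 genes closest to each member, of which 1 is not reported here. The members and lists were chosen with earlier results of these data known. Symbols stored as dates (24) were restored by Entrez number, and promoters and positions came from RefSeq and the reference annotation. In 0 of 20 comparisons was every same-number correlation above 0.1, so numbers were not used to pair libraries. Xist, the RNA of the silenced X chromosome in females, was at 46.6 to 104 RPKM in 9 libraries, r3 of 5xFAD and of Wild-type and r1 of 5xFAD + PLX5622 in all 3 regions, and at most 5.45 RPKM in the other 39, so a number may mark 1 animal over regions within a group. The records do not say so, the animal as a random block was an alternative, and p-values measure the spread between libraries. Alternatives were other pseudocounts, filters, scalings, fits, blocks, voom on reads and each library left out, and leaving out the 4 libraries that stand apart was chosen after seeing the data. Intervals cover counting error only.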

Additional observations from a re-analysis of the deposited data

Results flagged for a closer look

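Of 120 sets of 4 libraries (10 members in 12 groups), 9 held a library farther from the others than the 95% limit of Dixon's test, and chance gives about 1 in 20 sets. Tlr1 read 0.102 RPKM in 5xFAD + PLX5622 cortex r1 and 0 in the other 3 libraries. Tlr9 read 0.268 RPKM in Wild-type thalamus r1 against 0.598 to 0.625 RPKM in the others. Tlr13 read 0.0729 RPKM in Wild-type + PLX5622 hippocampus r1 and 0.207 RPKM in Wild-type + PLX5622 thalamus r1, where the others were at 0.0229 to 0.0283 RPKM and at 0. Cd14 read 2.03 RPKM in 5xFAD thalamus r1 against 3.23 to 3.24 RPKM in the others. Ly86 read 0.941 RPKM in Wild-type + PLX5622 cortex r1 (others 0 to 0.142 RPKM), 1.23 RPKM in 5xFAD + PLX5622 thalamus r3 (others 0.0954 to 0.259 RPKM) and 0.694 RPKM in Wild-type + PLX5622 thalamus r1 (others 0 to 0.0826 RPKM). Myd88 read 2.24 RPKM in 5xFAD + PLX5622 cortex r4 against 1.86 to 1.92 RPKM in the others. No member's effect was of opposite sign without overlap between genotypes or regions, and 0 passed a test of the difference of effects.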

How the results depend on the processing

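Of 260 log2 fold changes of members, 61 passed the test, and none of these changed sign under any alternative run. Of the 199 that did not pass, 36 changed sign under another setting and 41 more only with 1 library left out, the largest 0.39 and 0.27 in size outside the differences of effects. Calls lost were 17 with a pseudocount of 0.01, 11 with a pseudocount of 1, 13 of 51 with each region fitted alone, 16 with only the 2 groups fitted, 9 with voom, 7 without the 2 libraries with liver transcripts, 6 with each comparison adjusted by itself, 2 without the 4 libraries that stand apart, 1 of 47 at a mean of at least 0.5 RPKM (which drops Tlr1 and Tlr9), 1 each with the replicate block, the Xist level or rescaled libraries, and 0 with no filter, no trend, a robust fit or the animal as a random block.

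With a pseudocount of 0.01 the members called for 5xFAD against Wild-type were 0 in cortex and 0 in hippocampus, for PLX5622 in 5xFAD hippocampus 3, for 5xFAD + PLX5622 against Wild-type + PLX5622 in cortex 0, and for treated 5xFAD hippocampus against cortex 1. With a pseudocount of 1 these were 7 for 5xFAD cortex, 4 for 5xFAD thalamus, 0 and 2 for treated 5xFAD against treated Wild-type in cortex and hippocampus, and 2 for treated hippocampus against cortex. At a mean of at least 0.5 RPKM PLX5622 in 5xFAD hippocampus had 3. With each region fitted alone 5xFAD against Wild-type had 0 in cortex and 2 in hippocampus, and treated 5xFAD against treated Wild-type 0 and 2. With only the 2 groups fitted 5xFAD thalamus had 3, treated 5xFAD against treated Wild-type 0 and 0, and treated hippocampus against cortex 0. Voom gave 3 for 5xFAD thalamus, 0 and 2 for treated 5xFAD against treated Wild-type, 1 for treated hippocampus against cortex and 1 for untreated 5xFAD hippocampus against cortex. Adjusted by itself, 5xFAD cortex had 1 and hippocampus 3. Without the liver libraries treated hippocampus against cortex had 0. The cause of these moves was not tested.

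With the replicate block, 1 member was called for 5xFAD thalamus, as with the animal as a random block, and the block changed no other count by over 1.5 times. With 1 library left out in turn, 5xFAD against Wild-type called 1 to 3, 2 to 6 and 0 to 1 in cortex, hippocampus and thalamus, and PLX5622 called 7 to 7, 5 to 6 and 7 to 7 in 5xFAD and 4 to 6, 6 to 7 and 5 to 6 in Wild-type. Treated 5xFAD against treated Wild-type called 0 to 1, 3 to 6 and 0 to 0, treated 5xFAD hippocampus against cortex 1 to 5 and against thalamus 5 to 5. The thalamic call gained was Cd14, without 5xFAD thalamus r1, Wild-type + PLX5622 thalamus r4, 5xFAD + PLX5622 cortex r2 or r4, hippocampus r1 or r2, or thalamus r1 or r2. Values under 50% left after PLX5622 numbered 39 to 42. Depth limits the treated levels of Tlr1, Tlr7, Tlr9, Tlr13, Cd14 and Ly86, which rest on a few reads in some groups of both genotypes. In 5xFAD + PLX5622 thalamus Tlr7 and Cd14 held 10 reads each over 4 libraries, and Ly86 held 18.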
